A study of Mus musculus with 12 samples.

Results

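The genes described here are 10 mouse genes of DNA methylation and chromatin: Dnmt1, Uhrf1, Hells, Cdca7, Dnmt3a, Dnmt3b, Ezh2, Chaf1a, Chaf1b and Asf1b. All but Ezh2 act in copying and setting DNA methylation or in assembling chromatin behind the replication fork, and Ezh2 methylates histone H3. The 10 genes were taken by name, through every probe set that the platform annotation assigns to 1 gene symbol only. Of the 10 genes, 9 were measured, by 16 of the 20380 such probe sets in the table, and these 9 stand among 12393 genes measured in all. Chaf1a had no probe set of its own by this rule and is not analysed here. The list was chosen by function with the fold changes of these same arrays already known, so the differences reported for its genes are descriptions and give no independent support to a direction.

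The tumours were subcutaneous C26 tumours, a mouse colon carcinoma line, grown on the flank of Balb/c mice labelled as 6 weeks old. Treatment was given on day 8 after inoculation, at a tumour size of about 50 mm3, and tumours were taken 48 h later. The 3 groups of 4 mice received PBS as control, free doxorubicin (Dox), or CP-Dox, in which doxorubicin is attached to a chimeric polypeptide carrier. Doxorubicin is an anthracycline that inserts between DNA bases and poisons topoisomerase II. No group given the carrier alone is described in the labels and the doses are not given in the sources used here, so drug, carrier and dose cannot be told apart in the CP-Dox comparisons. Each tumour, from its own mouse, gave 1 Affymetrix array, and all values below are the deposited log2 RMA signals, on which a difference of 1 is a 2-fold difference. Signals of different probe sets are not on a common scale, so levels are compared within a gene only.

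When a cell replicates its DNA, each new double helix is methylated on the old strand only. Uhrf1 recognises this hemimethylated state and brings in Dnmt1, the maintenance methyltransferase, which copies the mark to the new strand. Hells is a SNF2-type nucleosome remodeller that works with its partner Cdca7 to open nucleosomal DNA to the methylation machinery, and mutations of either human gene cause the immunodeficiency, centromeric instability and facial anomalies syndrome. Dnmt3a and Dnmt3b place methylation on unmethylated DNA, and Ezh2 is the catalytic subunit of Polycomb repressive complex 2, which methylates lysine on histone H3. Asf1b is a chaperone that hands histones H3 and H4 to chromatin assembly factor 1, whose subunits Chaf1a and Chaf1b deposit them on newly copied DNA. Several of these genes are classical targets of E2F factors and are transcribed most strongly around S phase.

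The promoters of the genes are shown first, because the genes called lower in CP-Dox than in PBS below differ in the letters searched. Cdca7 holds an exact match to the E2F letters given here, and Chaf1b and Asf1b hold none. Similar letters were not searched, so a window without a match may still hold them. RefSeq (GRCm38.p6) gave 15 windows for the 10 genes, each of 300 bases from 250 before to 50 after a transcription start. Both strands were searched for the E2F letters TTTCGCGC, TTTGGCGC, TTTCCCGC and TTTGCCGC, which were present in 5 of the 15 windows, from 5 genes (Dnmt1, Uhrf1, Hells, Cdca7 and Ezh2), and in 2.27% of all 32841 windows of the same length. The 30-base stretches around these matches follow, 5′ to 3′ on the strand of the gene, with the match in capitals. The upstream stretch of Dnmt1 and that of Cdca7 hold the letters on the opposite strand, and a match is a description of letters, not of a bound site.
Dnmt1, chr9:20952824-20952853, minus strand: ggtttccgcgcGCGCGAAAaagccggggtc
Dnmt1, chr9:20952574-20952603, minus strand: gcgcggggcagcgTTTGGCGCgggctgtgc
Uhrf1, chr17:56304117-56304146, plus strand: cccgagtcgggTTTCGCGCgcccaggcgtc
Hells, chr19:38930917-38930946, plus strand: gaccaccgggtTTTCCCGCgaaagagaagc
Cdca7, chr2:72476137-72476166, plus strand: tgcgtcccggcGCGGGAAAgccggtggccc
Ezh2, chr6:47595009-47595038, minus strand: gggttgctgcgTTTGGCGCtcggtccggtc

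With the start site counted as 0, the match lay upstream of the start in Uhrf1 (from -185), Hells (from -62), Cdca7 (from -71) and the first Dnmt1 stretch (from -219). It lay after the start in Ezh2 (from 3) and in the second Dnmt1 stretch (from 33). The letters of the cell cycle homology element (TTTGAA or TTCGAA, either strand) were found in 3 windows, of Dnmt1, Dnmt3b and Asf1b, against 19.2% of all windows. CCAAT, a box often found beside that element in promoters of G2/M genes, was found on either strand in 7 windows of 5 genes (Dnmt1, Uhrf1, Ezh2, Chaf1a and Asf1b), against 37.4% of all windows. The windows of Chaf1b and of Dnmt3a held none of the searched letters.

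Longer upstream stretches of 2 promoters are printed, because Cdca7 and Asf1b were both lower in CP-Dox than in PBS and hold different letters. That of Asf1b runs up to the start site, and that of Cdca7 stops short of it, where the annotated gene begins. Cdca7 has 1 E2F match and neither of the others, and Asf1b has 4 CCAAT boxes on the opposite strand (ATTGG) and 1 TTTGAA that starts at -14, with no E2F match. Capitals mark these matches, and both genes lie on the plus strand.
Cdca7, chr2:72475969-72476186: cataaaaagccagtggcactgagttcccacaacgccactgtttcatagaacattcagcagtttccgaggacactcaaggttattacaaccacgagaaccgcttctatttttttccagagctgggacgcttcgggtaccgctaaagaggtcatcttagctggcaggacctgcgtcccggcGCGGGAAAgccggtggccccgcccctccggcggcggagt
Asf1b, chr8:83955444-83955693: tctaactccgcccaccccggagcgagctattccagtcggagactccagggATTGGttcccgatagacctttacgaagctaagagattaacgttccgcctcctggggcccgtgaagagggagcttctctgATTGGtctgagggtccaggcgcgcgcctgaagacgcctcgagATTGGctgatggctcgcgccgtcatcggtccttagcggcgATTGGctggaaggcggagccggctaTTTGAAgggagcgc

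One array stands apart and touches most results below. Over all genes, the mean Pearson r of an array with the rest of its group was 0.948 for CP-Dox replicate 2, against 0.971 to 0.977 for the remaining CP-Dox arrays, 0.983 to 0.990 for Dox and 0.981 to 0.983 for PBS. It held the lowest value of its group for 7 of the 9 genes, so each difference of CP-Dox from PBS or Dox for these genes is also given without it. Of the epithelial markers, Krt8 and Krt18 had PBS means of 10.31 and 8.20, and Epcam, Cdh1, Cdx2 and Vil1 had means of 5.90, 5.54, 5.23 and 4.40. These levels are not compared between genes, and without detection calls a low signal cannot be read as absence. The mean signal of 11 colon epithelium and carcinoma markers was 5.61 to 5.92 in PBS, 5.58 to 6.07 in Dox and 5.45 to 6.35 in CP-Dox. Signals of other cell types also differed between tumours: the mean of 11 keratinocyte markers lay 3.01 and 4.53 above the PBS mean in CP-Dox replicates 1 and 3 and between -0.17 and 0.10 in all other arrays. The mean of 12 skeletal muscle markers ranged from -2.71 to 3.63 relative to the PBS mean over all arrays. Of 9 mast cell markers, 8 were higher in CP-Dox than in PBS at an adjusted p under 0.05, as were 3 of 8 endothelial markers, 1 of 9 fibroblast markers and 1 of the 11 colon markers. The last was Cdh1, the epithelial cadherin, at 1.25 ± 0.33 (SE, limma adjusted p = 0.0483), with no overlap between the groups. Over all genes, 2.35% were called higher and 4.31% had CP-Dox wholly above PBS. The median difference of the 11 colon markers was 0.015, and 4 of the 11 were below 0. In whole tumours, fewer cells that transcribe a gene and less of its RNA per cell cannot be told apart, and the part of these cell types in the results was not tested.

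In the CP-Dox tumours 48 h after treatment, Cdca7, Chaf1b and Asf1b were lower than in the PBS tumours, by 2.33, 2.09 and 1.92 fold. Hells and Uhrf1 were also below every PBS tumour in all 4 CP-Dox tumours, with folds of 1.66 and 1.99, but their spread was wide and they did not pass the test. Dnmt1, Ezh2 and the de novo enzymes Dnmt3a and Dnmt3b overlapped the PBS tumours. Differences were tested with limma over all 12393 genes, with 1 mean per group over 12 arrays and Benjamini-Hochberg adjustment, and called at an adjusted p under 0.05. By this rule 3 of 9 genes were called lower and 0 higher, where 3.23% of all genes were called lower (400) and 2.35% higher (291). When arrays were centred on their medians, 503 of 719 called genes were lower, and the same 3 genes of the list were called. Groups did not overlap, with CP-Dox below PBS, for 5 of 9 genes and 7.75% of all genes, and lay wholly above PBS for 0 of 9 and 4.31%. The median log2 difference was -0.73 over the 9 genes and -0.04 over all genes. Without CP-Dox replicate 2 the median over the 9 genes was -0.45. Since the list was drawn up with this contrast known, nothing is read from these shares.

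**Figure D1:**
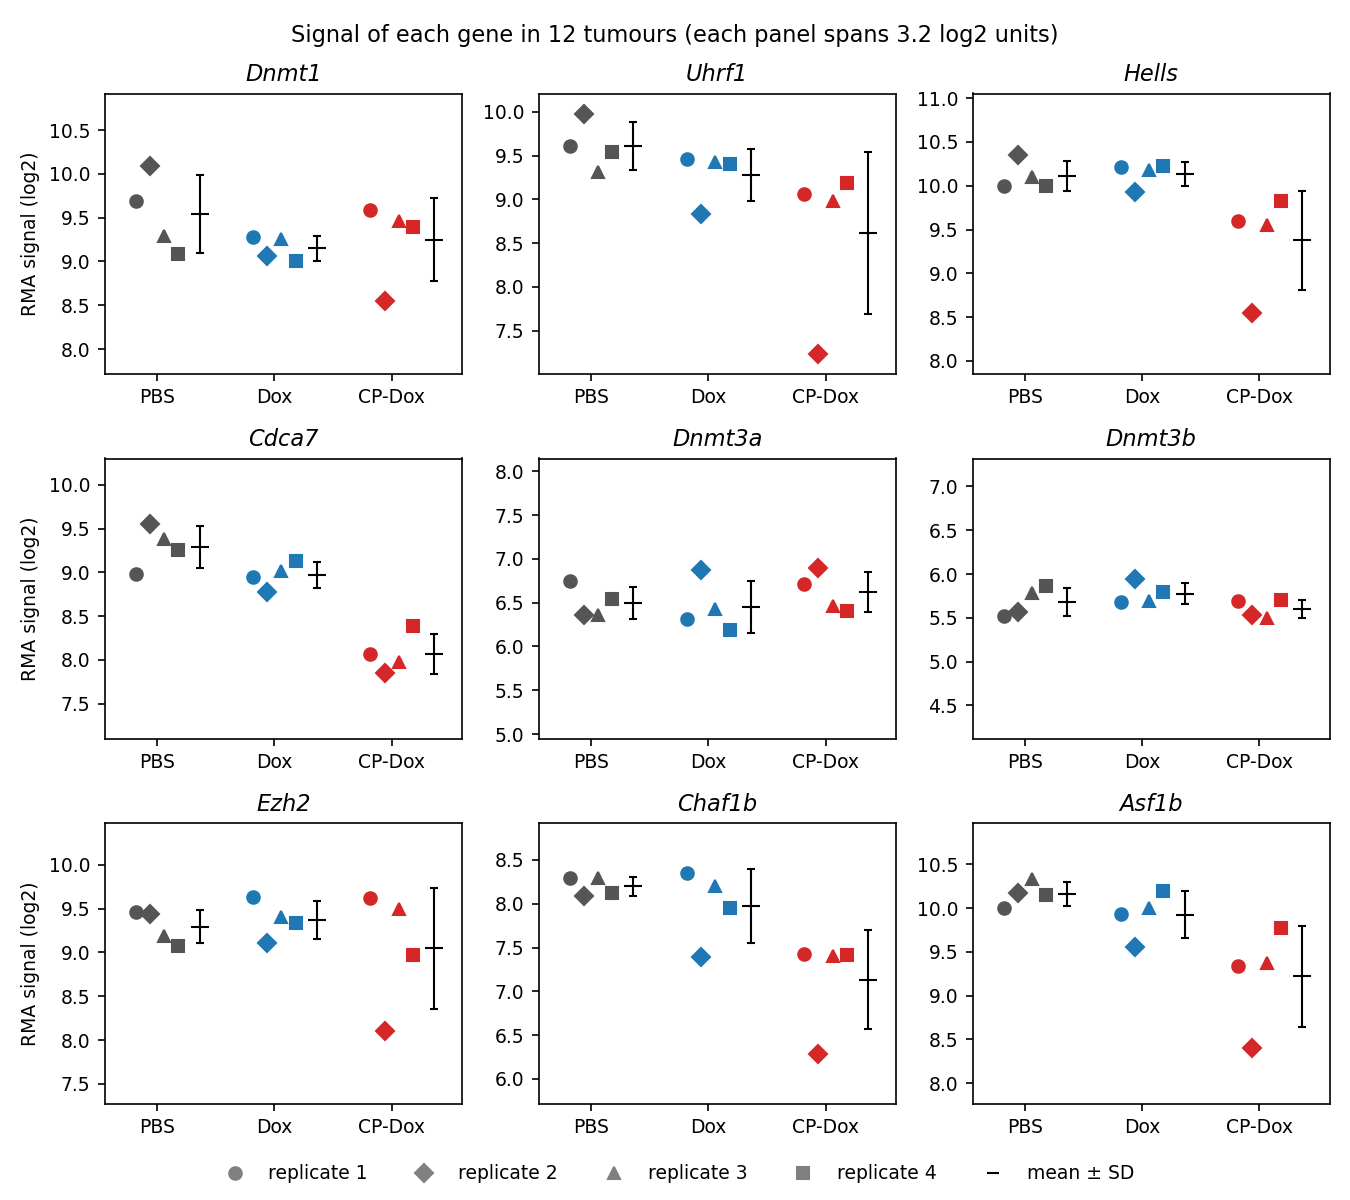
Deposited log2 RMA signal (vertical axes, each spanning the same number of log2 units) of the 9 measured genes in the PBS, Dox and CP-Dox tumours (4 points per group, marker shape giving the replicate number, bar giving mean ± SD). The 4 CP-Dox points of Cdca7 lie together between 7.85 and 8.38, whereas in Uhrf1, Hells, Chaf1b and Asf1b CP-Dox replicate 2 lies far below the others.

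Of the methylation copying machinery, Cdca7, the Hells partner, had the largest difference of the list. Its signals were 8.98, 9.55, 9.38 and 9.25 in PBS replicates 1 to 4, 8.95, 8.77, 9.01 and 9.13 in Dox, and 8.06, 7.85, 7.98 and 8.38 in CP-Dox. The highest CP-Dox tumour was thus below the lowest PBS and the lowest Dox tumour, and the CP-Dox tumours lay close together, with an SD of 0.23 against 0.24 in PBS. The difference of CP-Dox minus PBS was -1.22 ± 0.14 (SE; 95% interval -1.53 to -0.91; limma adjusted p = 0.00259). Without CP-Dox replicate 2 it was -1.15, and the gene was called under all 21 alternatives, with adjusted p from 0.000589 to 0.0211.

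Hells, the remodeller, gave 9.995, 10.36, 10.10 and 9.992 in PBS, 10.22, 9.93, 10.18 and 10.22 in Dox, and 9.60, 8.55, 9.55 and 9.82 in CP-Dox. All CP-Dox tumours were below all PBS and Dox tumours, and replicate 2 was far below the others of its group. The difference of CP-Dox minus PBS was -0.73 ± 0.23 (SE; limma adjusted p = 0.0853). Without CP-Dox replicate 2 the difference was smaller, at -0.45, and passed the test (limma adjusted p = 0.0230), and over 21 alternatives the adjusted p ran from 0.0230 to 0.191, with 2 calls.

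Uhrf1, the reader of hemimethylated DNA, gave 9.61, 9.98, 9.32 and 9.54 in PBS, 9.46, 8.83, 9.43 and 9.40 in Dox, and 9.07, 7.24, 8.98 and 9.19 in CP-Dox. The CP-Dox and PBS tumours did not overlap, but 3 of the CP-Dox tumours lay just under the PBS range and replicate 2 far below it. The difference was -0.99 ± 0.37 (SE; limma adjusted p = 0.137) and -0.53 without CP-Dox replicate 2 (limma adjusted p = 0.0579; 0.0579 to 0.241 over 21 alternatives, with no call).

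Dnmt1, the maintenance methyltransferase itself, gave 9.69, 10.09, 9.29 and 9.08 in PBS, 9.28, 9.06, 9.26 and 9.003 in Dox, and 9.59, 8.55, 9.46 and 9.40 in CP-Dox. The groups overlapped, and the PBS tumours alone spread over a log2 unit. The difference of CP-Dox minus PBS was -0.29 ± 0.25 (SE; 95% interval -0.83 to 0.25; limma adjusted p = 0.493) and -0.06 without CP-Dox replicate 2. By this probe set Dnmt1 was at the lower end of the PBS range or under it in all 4 Dox tumours, whereas 3 CP-Dox tumours lay within that range. The other Dnmt1 probe set did not share this pattern. Its Dox signals, 8.61 to 9.24, all lay within its PBS range of 8.49 to 9.57, and its difference of Dox minus PBS was -0.09.

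The chromatin assembly genes were the other members called. Chaf1b, the smaller of the chromatin assembly factor subunits on the list, gave 8.29, 8.08, 8.30 and 8.13 in PBS, 8.35, 7.39, 8.20 and 7.95 in Dox, and 7.43, 6.29, 7.41 and 7.41 in CP-Dox. The CP-Dox tumours were all below the PBS tumours, and 3 of them shared nearly the same value. The difference of CP-Dox minus PBS was -1.07 ± 0.26 (SE; limma adjusted p = 0.0398), and -0.78 without CP-Dox replicate 2 (limma adjusted p = 0.0149).

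Asf1b, the histone H3 and H4 chaperone, gave 9.998, 10.18, 10.33 and 10.14 in PBS, 9.93, 9.56, 10.01 and 10.20 in Dox, and 9.33, 8.40, 9.37 and 9.77 in CP-Dox. Again every CP-Dox tumour was below every PBS tumour, and replicate 2 was lowest. The difference was -0.94 ± 0.24 (SE; limma adjusted p = 0.0454), and -0.67 without CP-Dox replicate 2 (limma adjusted p = 0.0143). The calls of Chaf1b and Asf1b were close to the threshold: both were lost when any 1 PBS array, Dox replicate 3 or 4, or CP-Dox replicate 1 or 3 was left out, Chaf1b also without CP-Dox replicate 4, and Asf1b also without Dox replicate 1 or 2. The difference then ran from -1.03 to -1.16 for Chaf1b and from -0.89 to -0.996 for Asf1b. Both calls were also lost when the compared groups were fitted alone. Over 21 alternatives the adjusted p ran from 0.00960 to 0.103 for Chaf1b and from 0.00967 to 0.121 for Asf1b, and all differences were below 0.

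The de novo methyltransferases overlapped between the groups. Dnmt3a signals were 6.36 to 6.74 in PBS, 6.19 to 6.87 in Dox and 6.41 to 6.90 in CP-Dox, and the difference of CP-Dox minus PBS was 0.12 ± 0.16 (SE; 95% interval -0.23 to 0.47; limma adjusted p = 0.665), and 0.029 without CP-Dox replicate 2. CP-Dox replicate 2, lowest of its group for most of the list, was the highest of its group for Dnmt3a. Dnmt3b signals were 5.52 to 5.86 in PBS, 5.68 to 5.94 in Dox and 5.50 to 5.70 in CP-Dox, with a difference of -0.08 ± 0.10 (SE; 95% interval -0.29 to 0.14; limma adjusted p = 0.670), and -0.051 without CP-Dox replicate 2. These intervals leave room for modest differences in either direction.

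Ezh2, the Polycomb methyltransferase, gave 9.46, 9.43, 9.19 and 9.08 in PBS, 9.64, 9.11, 9.40 and 9.33 in Dox, and 9.62, 8.11, 9.49 and 8.97 in CP-Dox. Apart from replicate 2 the CP-Dox tumours lay in or near the PBS range. The difference of CP-Dox minus PBS was -0.25 ± 0.27 (SE; limma adjusted p = 0.606), and it was 0.07 without CP-Dox replicate 2, so that array sets its sign.

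**Figure D2:**
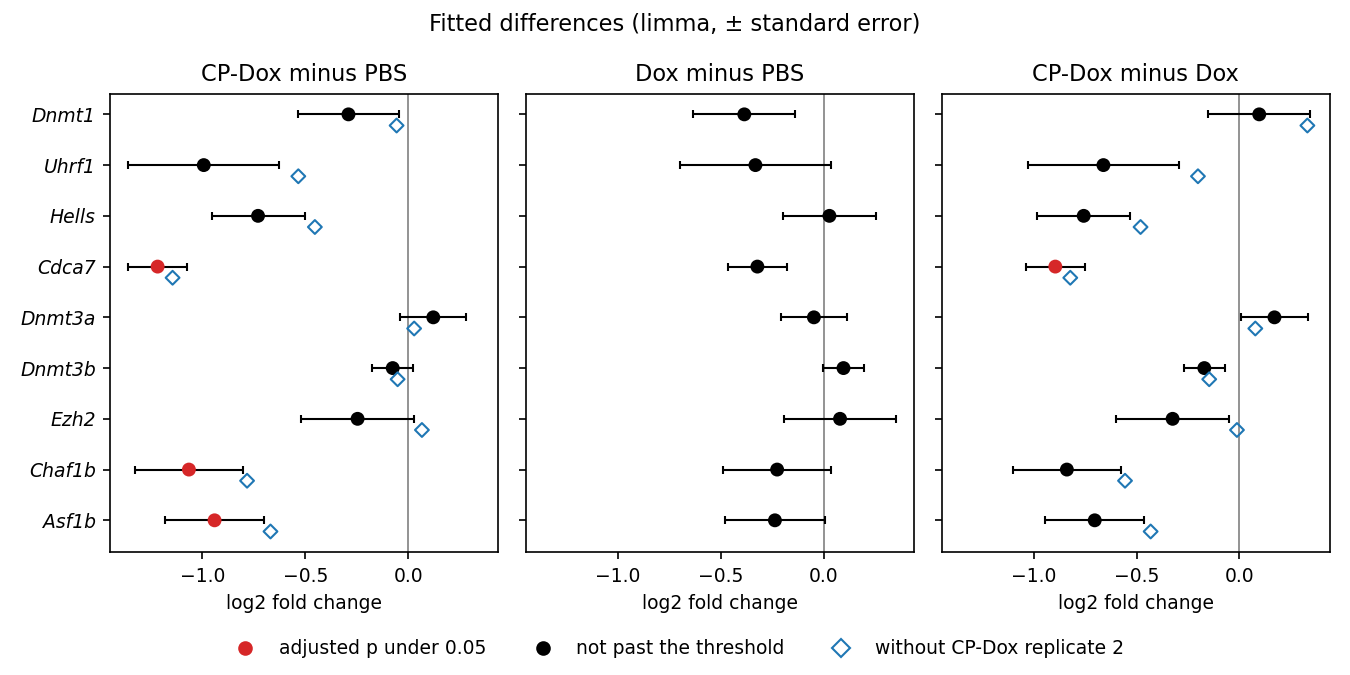
Fitted log2 differences of the 9 measured genes (horizontal axes) in the 3 comparisons, with standard errors as bars, red where the adjusted p was under 0.05, and open diamonds for the fit without CP-Dox replicate 2. Cdca7 stays near its value without that array (-1.15 against -1.22 in CP-Dox minus PBS), and Uhrf1 moves from -0.99 to -0.53.

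Where a gene had several probe sets, they did not always agree. Both Uhrf1 probe sets were lower in CP-Dox than in PBS, by -0.99 and -0.73, although with the dimmer one the groups overlapped. Both Dnmt1 probe sets gave negative differences in CP-Dox minus PBS (-0.29 and -0.48), but in CP-Dox minus Dox one gave 0.10 and the other -0.39. The 5 Dnmt3a probe sets ranged from -0.18 to 0.18 in CP-Dox minus PBS, with 1 of 5 below 0, and the 2 of Dnmt3b gave -0.08 and -0.13. None of these differences passed the test in a fit of all 20380 probe sets, where the adjusted p of the Dnmt3a probe sets ran from 0.344 to 0.750.

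**Figure D3:**
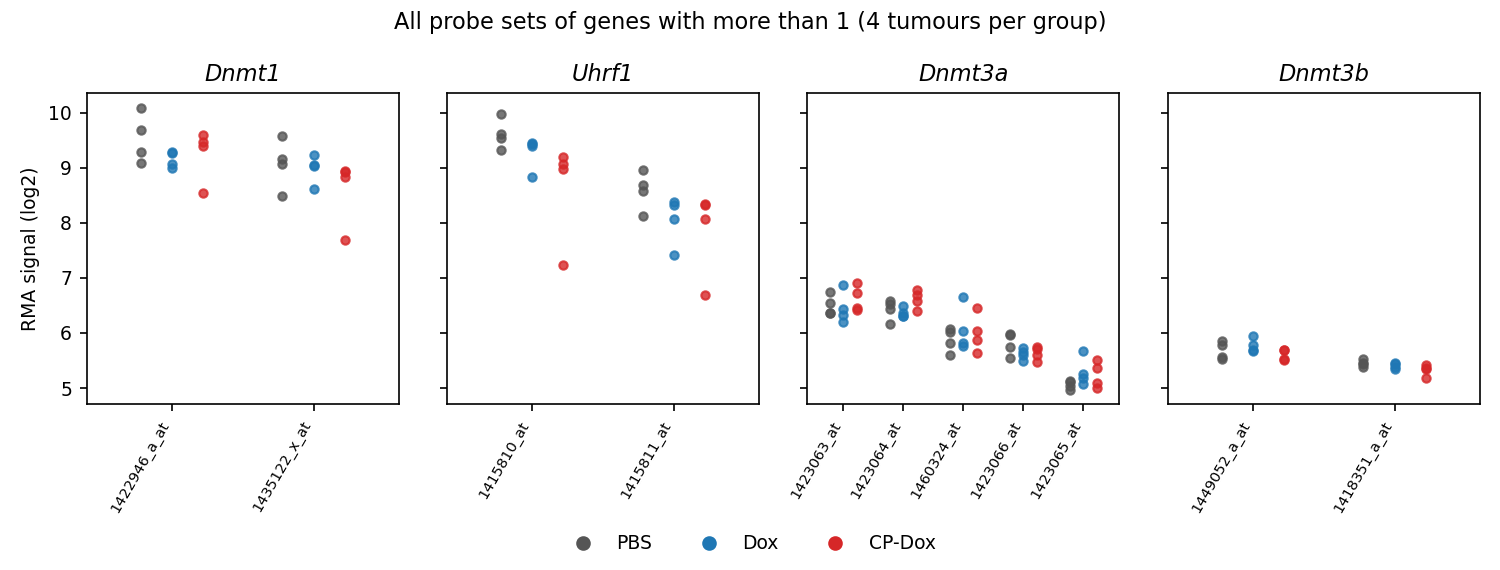
Log2 RMA signal (vertical axis) of each probe set of the 4 genes with more than 1, for PBS, Dox and CP-Dox tumours (4 points each). Levels may be compared between groups within a probe set only; the lowest CP-Dox point is set apart in both Uhrf1 probe sets and both Dnmt1 probe sets, and in neither Dnmt3b probe set.

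In the free Dox tumours no gene of the list passed the test. In Dox minus PBS, 0 of 9 genes were called and 0% of all 12393 genes were called lower. At an unadjusted p under 0.05, limma gave 558 genes, among them 1 of the list, Cdca7, at -0.32 ± 0.14 (SE; unadjusted p = 0.0441, adjusted p = 0.995). No gene of the list was without overlap, against 2.13% of all genes with Dox wholly below PBS. The median log2 difference was -0.23 over the 9 genes and 0.00 over all genes, and 6 of the 9 were below 0. Dnmt1 gave -0.39 ± 0.25 (SE), Uhrf1 -0.33 ± 0.37, Asf1b -0.24 ± 0.24 and Chaf1b -0.23 ± 0.26, whereas Hells gave 0.03 ± 0.23. The other probe sets of Dnmt1 and Uhrf1 gave -0.09 and -0.54. The 95% interval of Cdca7 ran from -0.64 to -0.01 and that of Hells from -0.47 to 0.52. A missing call therefore does not show that free Dox left these genes as in PBS. Dox replicate 2 was the lowest Dox tumour for 6 of the 9 genes, with Uhrf1 at 8.83 and Chaf1b at 7.39, and the highest for Dnmt3a and Dnmt3b.

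The direct comparison of the carrier-bound with the free drug at the same time gave lower values in CP-Dox for Cdca7. The difference was -0.90 ± 0.14 (SE; 95% interval -1.21 to -0.58; limma adjusted p = 0.0437), that is 1.86 fold, and no CP-Dox tumour reached the Dox range. This was 1 of 9 genes, where 0.169% of all genes were called lower, and nothing is read from that share. The call of Cdca7 was lost when any 1 Dox array, CP-Dox replicate 1 or 3, or PBS replicate 1 or 2 was left out, with a difference from -0.84 to -0.96. It was also lost when the compared groups were fitted alone (adjusted p = 0.0857) or each gene was read from its probe set of largest variance (adjusted p = 0.0617). Adding the replicate number to the model as a block ended the call as well. Over 21 alternatives the gene was called in 10, with adjusted p from 0.00309 to 0.186, and the difference was -0.82 without CP-Dox replicate 2. Hells, whose groups also did not overlap, gave -0.76 ± 0.23 (SE; adjusted p = 0.168), and -0.48 without CP-Dox replicate 2 (adjusted p = 0.0337; range over 21 alternatives 0.0155 to 0.327). Groups without overlap, CP-Dox below Dox, were found for these 2 of 9 genes and for 6.34% of all genes.

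The remaining genes did not pass the test between the 2 forms of the drug, which does not show that they were equal. The unadjusted intervals of Chaf1b and Asf1b lay below 0, and each of these genes was called in 1 of 21 alternatives, with array weights. Chaf1b gave -0.84 ± 0.26 (SE; 95% interval -1.42 to -0.26; adjusted p = 0.184) and Asf1b -0.70 ± 0.24 (95% interval -1.23 to -0.18; adjusted p = 0.208). Uhrf1 gave -0.66 ± 0.37 (95% interval -1.47 to 0.14, adjusted p = 0.398), but only -0.19 with its other probe set. Ezh2 gave -0.32 ± 0.27. Dnmt1, at 0.10 ± 0.25, and Dnmt3a, at 0.17 ± 0.16, had positive differences, and Dnmt3b gave -0.17 ± 0.10. Without CP-Dox replicate 2 the differences were -0.56 for Chaf1b, -0.43 for Asf1b, -0.20 for Uhrf1 and -0.012 for Ezh2, so that array sets much of their size. They were 0.33 for Dnmt1, 0.077 for Dnmt3a and -0.15 for Dnmt3b, and no gene of this paragraph was called in that fit or in the main one. The median over the 9 genes was -0.66, against -0.03 over all genes, and -0.20 without CP-Dox replicate 2.

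Lists of cell cycle genes were lowest in the same tumour as the 9 genes. Relative to the PBS mean, the mean of the 9 genes was -0.36, -1.22, -0.46 and -0.37 in CP-Dox replicates 1 to 4. The mean of 23 S phase genes (replication licensing, polymerase and nucleotide synthesis) was -0.50, -1.57, -0.47 and -0.39 in the same tumours, and that of 19 G2/M genes -0.12, -1.73, -0.28 and -0.14. Of the S phase genes, 5 of 23 were called lower in CP-Dox than in PBS, with a median difference of -0.73, and of the G2/M genes 1 of 19, with a median of -0.58, against 3.23% and -0.04 over all genes. In Dox replicate 2 the 3 means were -0.32, -0.57 and -0.50. CP-Dox replicate 2 was thus lowest in all 3 lists, and of the 12 arrays it also had the lowest marker means of T and natural killer cells (-1.57) and of macrophages and monocytes (-0.46), and the highest colon marker mean (0.58). Cdca7 differed in pattern from the list means: in CP-Dox it was -1.22, -1.44, -1.31 and -0.90 relative to its PBS mean, so replicate 2 was lowest here too but not set apart from the others. The part of cell cycling in the lower values was not tested.

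**Figure D4:**
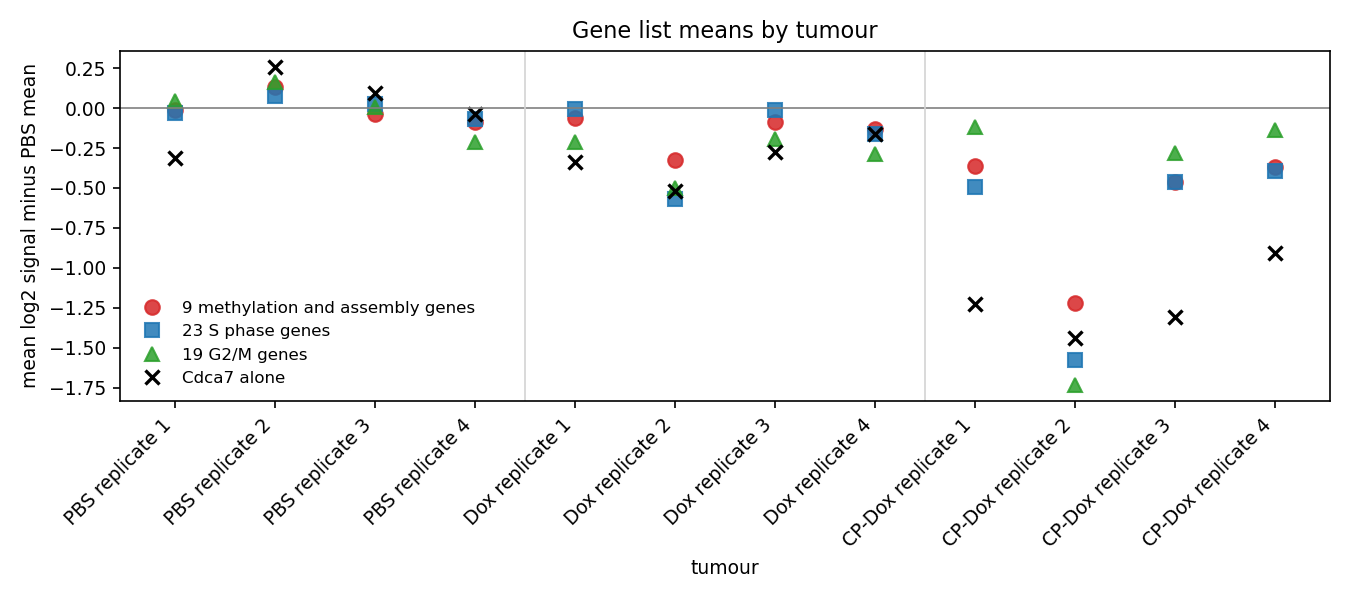
Mean log2 signal minus the PBS mean (vertical axis) in each of the 12 tumours for the 9 genes of the list, 23 S phase genes, 19 G2/M genes and Cdca7 alone. All 3 means are lowest in CP-Dox replicate 2, whereas Cdca7 is between -0.90 and -1.44 in all 4 CP-Dox tumours.

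The genes of the list differed in how closely they followed its mean. Over the 12 arrays, after removal of group means, the correlation of each gene with the mean of the other 8 was 0.97 for Uhrf1 and for Hells, 0.83 for Chaf1b, Asf1b and Ezh2, 0.77 for Dnmt1, 0.50 for Cdca7, -0.07 for Dnmt3b and -0.67 for Dnmt3a. Several of these values moved without CP-Dox replicate 2: they were then 0.84 for Uhrf1, 0.79 for Hells, 0.44 for Dnmt1, 0.42 for Chaf1b, 0.39 for Cdca7, 0.27 for Asf1b, 0.26 for Ezh2, -0.68 for Dnmt3b and -0.72 for Dnmt3a. Outside the list, the genes whose 12 values were most like the mean of the 9 were Ncapg2, Aurkb, Spdl1, Bub1 and Bub1b, which act in chromosome condensation and mitosis. Their Pearson r ran from 0.977 to 0.980 and Spearman rho from 0.916 to 0.958. Without the 2 arrays farthest from the median (CP-Dox replicates 2 and 3), r was 0.900 to 0.919. With group means removed, the most alike were Mcm5, a subunit of the replicative helicase, and Racgap1, Cenpn, Rbl1 and Tacc3, with r from 0.985 to 0.995 and rho from 0.923 to 0.993. Without CP-Dox replicate 2 and Dox replicate 2, r was at least 0.924 for these genes. They were picked for the highest r among all genes and the tumours share treatment groups, so the correlations are descriptions.

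Other genes of the same pathways were read from 4 lists of 51 genes, of which 40 were measured. In CP-Dox minus PBS, 9 of 40 were called, all lower, where 3.23% of all genes were called lower. The median difference over the 40 was -0.20, against -0.04 over all genes. These lists too were drawn up with earlier results known. Among 9 readers, erasers and partners of DNA methylation, Mbd3, a subunit of the NuRD repressor complex, was called at -0.60 ± 0.09 (SE; limma adjusted p = 0.00451). The methyl-CpG binders Mbd2 (0.34 ± 0.10) and Mbd1 (0.18 ± 0.08) had positive values, and the Dnmt3 cofactor Dnmt3l gave -0.63 ± 0.19, and none of these 3 was called. CP-Dox lay wholly above PBS for Mbd2 and Mbd1, 2 of the 9 genes, against 4.31% of all genes. It lay wholly below PBS for 1 of the 9, against 7.75%. The mean of this list in the CP-Dox tumours lay between -0.17 and -0.03.

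Among 15 histone chaperones and assembly factors, 5 were called lower (3.23% of all genes) and 10 had CP-Dox wholly below PBS (7.75% of all genes). The called genes were Set (-0.58 ± 0.08), Anp32e, which removes the variant H2A.Z (-0.70 ± 0.10), Nap1l1, an H2A and H2B chaperone (-0.58 ± 0.09), Nasp, which keeps a reserve of H3 and H4 (-0.65 ± 0.13), and Hira. Hira, which deposits the replication-independent variant H3.3, gave -0.47 ± 0.10 and is named after its value was seen. Asf1a, the paralog of Asf1b, gave -0.35 ± 0.10 (adjusted p = 0.0787) and is likewise named after its value was seen. The list mean in CP-Dox replicates 1 to 4 was -0.22, -0.35, -0.28 and -0.23, so replicate 2 was less far from its group here than for the 9 genes.

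Of 8 partners of Polycomb repressive complex 2, none was called in CP-Dox minus PBS (limma, 0 of 8). Ezh1, the paralog of Ezh2, gave 0.50 ± 0.15 (SE, limma adjusted p = 0.0684), Jarid2 0.27 ± 0.13, Phf19 -0.53 ± 0.16 (adjusted p = 0.0812) and Suz12, a core subunit, -0.24 ± 0.10. CP-Dox lay wholly above PBS for Jarid2 and wholly below for Phf19, each 1 of 8, against 4.31% and 7.75% of all genes. Of 8 heterochromatin genes, 3 were called lower, against the same 3.23% of all genes. Suv39h2, a histone H3 lysine methyltransferase, gave -0.997 ± 0.20 (adjusted p = 0.0173), and the heterochromatin protein 1 genes Cbx1 and Cbx5 gave -0.59 ± 0.14 and -0.50 ± 0.12. Kmt5a, a histone H4 methyltransferase, gave -0.35 ± 0.22 and was not called. In Dox minus PBS, 0 of 40 related genes were called by limma, with 2 at an unadjusted p under 0.05. In CP-Dox minus Dox, Set (-0.52 ± 0.08, adjusted p = 0.0437) and Anp32e (-0.61 ± 0.10, adjusted p = 0.0499) were called. Both calls were lost when the compared groups were fitted alone or each gene was read from its probe set of largest variance. Both were also lost with the replicate number as a block. Without CP-Dox replicate 2 these counts rose from 9 to 16 in CP-Dox minus PBS, of which 2 were higher, and from 2 to 7 in CP-Dox minus Dox, while calls over all genes rose from 691 to 2363 and from 28 to 1150. The first count was 5 without PBS replicate 3 or CP-Dox replicate 3, and 6 without CP-Dox replicate 1. The second was 0 without any 1 Dox array, CP-Dox replicate 1, 3 or 4, or PBS replicate 1 or 2.

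**Figure D5:**
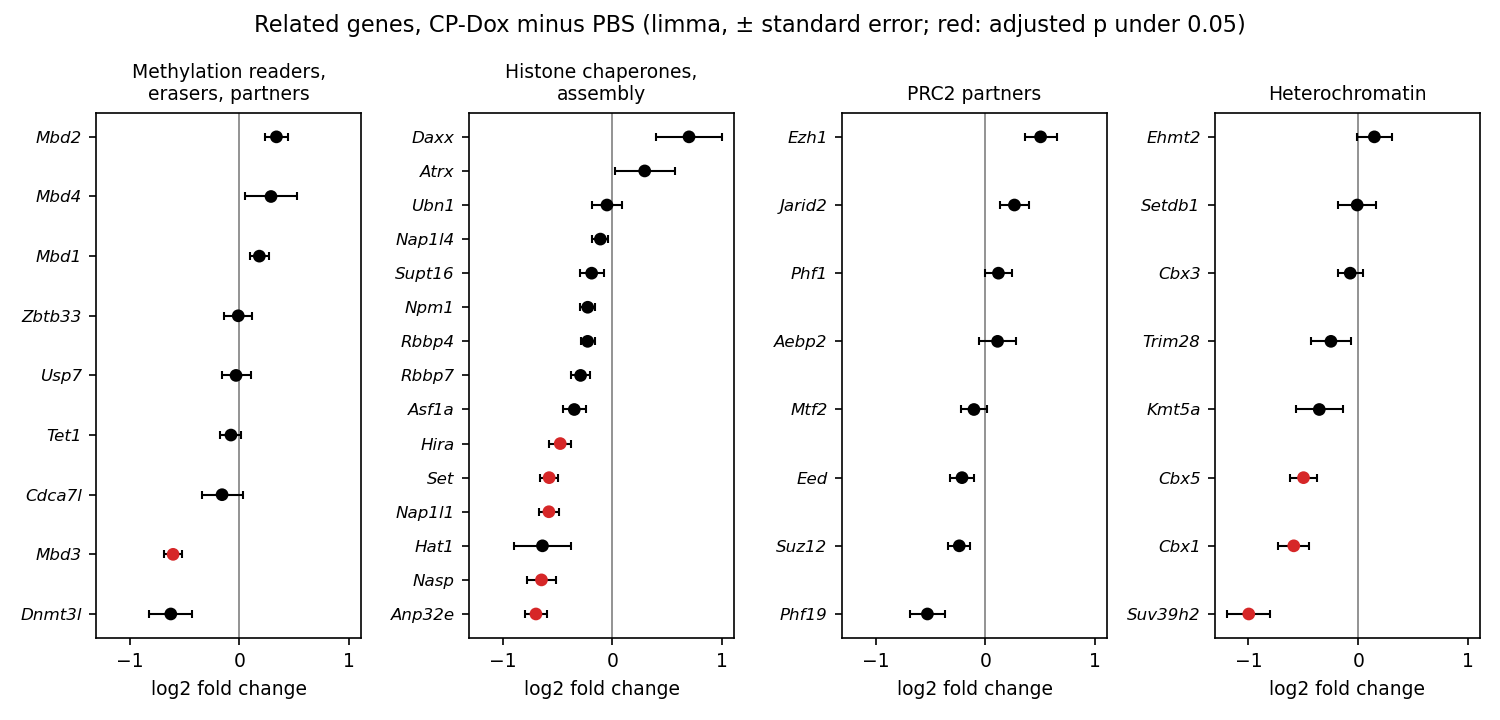
Log2 difference of CP-Dox minus PBS (horizontal axes) with standard errors for the 40 measured related genes, in 4 lists, red where the adjusted p was under 0.05. The 9 called genes are all lower, from -0.47 for Hira to -0.997 for Suv39h2, and none is among the 8 Polycomb partners.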

How the data were processed

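RNA of 12 tumours was measured on Affymetrix arrays, 1 per tumour. The deposited values are log2 signals that the authors made, per the submitters' processing notes, with RMA and Partek, whose versions are not given in the sources used here. RMA corrects background, normalizes by quantiles and summarizes probes. The values were not normalized again. Of 22690 probe sets, 64 controls, 691 with several symbols and 1555 with none were left out. The remaining 20380 stand for 12393 genes, each read from its probe set with the highest mean over all arrays. The RefSeq table held the identifiers of 20351 of them, and 0 symbols changed.

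One limma 3.58.1 model (lmFit, eBayes; R 4.3.3) with a mean per group over 12 arrays gave 3 two-sided contrasts, adjusted by Benjamini-Hochberg over 12393 genes, called under 0.05. No minimum signal was set, and the number of arrays limits the precision. In simulated data of 12393 genes, 83% of 2-fold and 46% of 1.5-fold changes were recovered for CP-Dox minus PBS. The changed genes were picked at random and the noise was independent between genes. The within-group SD exceeded that of 82.9% to 94.2% of genes for Hells, Asf1b, Dnmt1, Chaf1b, Ezh2 and Uhrf1. For Dnmt3b, Cdca7 and Dnmt3a it exceeded that of 21.4% to 66.9%. The simulated shares therefore need not hold for the list. Replicate numbers come from sample titles that number the mice. The members, lists, tests and alternatives were chosen with earlier results of these data known. Named are all members, up to 4 genes of each related list with the lowest p in CP-Dox minus PBS, those called in the other comparisons, and the 5 genes most like the member mean with and without group means. Promoters come from RefSeq (GRCm38.p6). Alternatives covered normalization, low signals, probe set choice, variance model, array weights, groups fitted, replicate block, threshold and each array left out. Figures were drawn with matplotlib 3.10.9.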

Additional observations from a re-analysis of the deposited data

Results flagged for a closer look

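In groups of 4, the gap of the lowest or highest tumour to the next value was taken as a share of the group's range. A tumour was noted where this share exceeded Dixon's critical value, which chance reaches in about 5% of groups. In all, 36 groups were checked and 7 were noted, all for a replicate 2. The checks share the same 12 arrays, and the mean of the 9 genes contains the single genes. They are not independent, so the count of 7 is not compared with the 5%. For Uhrf1 the gap was 0.891 of the range in CP-Dox replicate 2 (7.24 against 8.98 to 9.19) and 0.910 in Dox replicate 2 (8.83 against 9.40 to 9.46). For Chaf1b it was 0.983 in CP-Dox replicate 2 (6.29 against 7.41 to 7.43), and for Hells 0.856 in Dox replicate 2 (9.93 against 10.18 to 10.22). In CP-Dox replicate 2 the gap was 0.883 for the mean of the 9 genes (-1.22 against -0.46 to -0.36), 0.913 for the S phase mean (-1.57 against -0.50 to -0.39) and 0.902 for the G2/M mean (-1.73 against -0.28 to -0.12).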

How the results depend on the processing

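In CP-Dox minus PBS, 3 genes of the list were called: 1 when the compared groups were fitted alone or at an adjusted p under 0.01, and 1 to 4 when an array was left out. Of related genes, 9 were called: 18 with array weights, 4 with the compared groups alone, 4 at 0.01, and 5 to 16 with an array left out. In CP-Dox minus Dox, the 1 call on the list became 0 with the probe set of largest variance, the compared groups alone, the replicate block or the 0.01 threshold, 4 with array weights, and 0 to 2 with an array left out. The 2 related calls became 0 in the same settings, 12 with array weights, and 0 to 7 with an array left out. The median of the 9 genes in CP-Dox minus Dox ran from -0.85 to -0.20 with an array left out. In Dox minus PBS no gene of the list or related gene was called under any alternative. Fits with an array left out have fewer samples, and the causes of the other changes were not tested. Among single genes, 14 signs were reversed, none of a called difference. Ezh2 in CP-Dox minus PBS was 0.041 with array weights and -0.44 to 0.067 with an array left out. In Dox minus PBS, Dnmt3a was 0.027 as a mean of probe sets, 0.20 with the probe set of largest variance and -0.19 to 0.038 with an array left out, Hells was -0.012 to 0.11 and Ezh2 -0.011 to 0.17 with an array left out. In CP-Dox minus Dox, Dnmt1 was -0.15 as a mean of probe sets, -0.39 with the probe set of largest variance and -0.017 to 0.33 with an array left out, and Dnmt3a was -0.069 with the probe set of largest variance. Equal replicate numbers were not taken to pair the samples, since the titles number the mice and do not say that equal numbers share anything. Deviations of arrays of equal number correlated from -0.31 to 0.51, with 8 of 12 pairs above 0.1, against 10 of 36 pairs of unequal number. Of the 12 arrays, 6 correlated best with their own number. These values are a hint of pairing from the data and not the design, and pairing was not tested. With the replicate number as a block, 3 genes of the list and 11 related genes were called in CP-Dox minus PBS. Over all genes, calls in CP-Dox minus PBS numbered 691, and 198 with the compared groups alone, 2665 with array weights and 214 to 2363 with an array left out; in CP-Dox minus Dox they numbered 28, and 0 with the compared groups alone, 8 with the block, 1960 with array weights and 1 to 1150 with an array left out. Depth has no counterpart on these arrays, and no detection calls were used.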
